A study of Mus musculus with 18 samples.

Results

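Olig1, Olig2 and 6 further genes of the oligodendrocyte lineage (Sox10, Gpr17, Pdgfra, Cspg4, Mbp and Cnp) were followed in Ts1Cje and euploid mice at birth, in a layer dissected from the cerebellum. They were chosen by name, as all probes that the annotation of the array gives to these 8 symbols, and not by their signal. This gave 13 probes of the 46632 on the array, for 8 of its 17711 named genes. The external granule cell layer covers the newborn cerebellum and holds the dividing precursors of granule cells. It was taken at P0 from 9 Ts1Cje and 9 euploid mice, with 1 Illumina Mouse-6 bead array for each mouse, and the signal of a probe is its deposited log2 value. The labels give the strain as B6EiC3SnF1/J A/a and the paper as a mixed B6C3SnF1/Orl background, and the mice came from 3 litters, each with 3 Ts1Cje and 3 euploid mice. Ts1Cje mice carry a segmental trisomy of distal Mmu16, translocated to Mmu12 with loss of the telomeric end of Mmu12, and their euploid littermates carry neither. Each litter had a slide of its own, and effects of the litter and of the slide cannot be told apart.

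Oligodendrocytes are the cells that wrap axons of the central nervous system in myelin. They arise from migrating progenitors that depend on platelet-derived growth factor, and the transcription factors Olig2 and Sox10 set and keep their identity. In the cerebellum most of these progenitors enter from outside the granule cell layer and are found in the white matter, where myelin forms after birth. Olig1 and Olig2 lie side by side in the segment that is present in 3 copies in Ts1Cje mice, while the other 6 genes keep 2 copies.

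Olig2 spans chr16:91225550-91228677 and Olig1 chr16:91269769-91271939 (GRCm38), with 44219 bases between their starts. Sox10 lies on Mmu15, Pdgfra on Mmu5, Cspg4 on Mmu9, Cnp on Mmu11, and Mbp and Gpr17 both on Mmu18. The 250 bases before a start of Olig2, Cnp and Cspg4 are printed from RefSeq, because the correlation of these genes with Sox10 over the mice passed its test and Sox10 is a DNA-binding factor. For Cnp the window lies before a start within the gene as placed by the annotation. Capitals mark the core of the SOX motif, searched as ACAAT or ATTGT so that both strands were covered.
Olig2 (chr16:91225300-91225549, plus strand): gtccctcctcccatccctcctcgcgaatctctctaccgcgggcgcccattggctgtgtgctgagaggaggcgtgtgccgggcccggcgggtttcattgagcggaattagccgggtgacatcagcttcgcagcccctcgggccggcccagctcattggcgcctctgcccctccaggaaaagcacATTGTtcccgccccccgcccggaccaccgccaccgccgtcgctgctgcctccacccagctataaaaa
Cspg4 (chr9:56864854-56865103, plus strand): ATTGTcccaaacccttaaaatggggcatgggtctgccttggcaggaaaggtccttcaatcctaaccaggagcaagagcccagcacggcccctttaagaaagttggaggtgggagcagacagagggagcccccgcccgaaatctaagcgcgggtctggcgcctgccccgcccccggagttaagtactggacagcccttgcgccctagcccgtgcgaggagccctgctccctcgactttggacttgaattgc
Cnp (chr11:100574689-100574938, plus strand): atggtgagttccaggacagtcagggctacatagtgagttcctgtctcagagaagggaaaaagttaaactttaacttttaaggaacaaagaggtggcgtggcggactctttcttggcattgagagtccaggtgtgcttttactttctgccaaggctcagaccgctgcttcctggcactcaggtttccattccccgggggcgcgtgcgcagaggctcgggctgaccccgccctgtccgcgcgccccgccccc
The windows of Olig2 and Cspg4 each held 1 such core, 67 and 250 bases before the start, and that of Cnp held 0. E-boxes (CANNTG, the motif of basic helix-loop-helix factors such as Olig2) numbered 0 in Olig2 and Cspg4 and 1 in Cnp. The window of Pdgfra held 0 cores and 1 E-box. Of 32851 windows of this length over all genes, 27.7% held the SOX core and 66.2% an E-box, so that the core is common and its presence here is a description of the letters only.

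Of the 18 arrays, each had a mean log2 signal of 6.69, with SDs of 1.46 to 1.63 over the probes. Pairs of arrays correlated at 0.981 to 0.995 and 0 pairs were identical. The 1307 probes of olfactory and vomeronasal receptor genes, which are not known from this tissue, gave the background level, with a median of 5.65 and a 95th percentile of 6.14. To check the tissue label, markers were read: the granule cell precursor genes Zic1 (12.79), Ccnd1 (12.40), Pax6 (11.99), Meis1 (10.55) and Barhl1 (7.31) were above the background, whereas Atoh1 (5.69), their defining transcription factor, Mycn (5.52) and Gli1 (5.40) were not. Genes of other cerebellar cells were also bright, among them Slc1a3 of glia (13.70), Slc32a1 of GABAergic neurons (11.79) and Pcp2 of Purkinje cells (11.49), so that the levels do not mark the layer alone. The source label of 2 euploid arrays of litter 2, replicates 5 and 6, names cerebellum and their tissue label names the external granular layer. The genotype differences of the 8 genes are also given without them. The genotype test was run over the brightest 25% of the probes, 11658 in number, whose dimmest probe had a mean of 7.07.

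Levels differed widely between the 8 genes, but signals of different probes are not comparable as amounts of RNA, and they are set only against the background level. The Olig1 probe was the brightest, with a mean of 10.64, above 96.5% of all probes. Pdgfra followed with 9.45 and Mbp with 8.90. Cspg4 (7.57), Sox10 (7.50), Gpr17 (7.35), Cnp (7.15) and Olig2 (7.03) lay closer to the background, and all 8 were above the 99th percentile of the receptor probes, 6.50. Olig2 fell narrowly below the tested probes. Second probes were dim for Olig2 (5.83) and Pdgfra (6.38), and of 4 Mbp probes 2 were tested, with means of 8.90 and 7.75, and 2 were dim (6.18 and 5.96). Each gene is represented by its brightest probe unless stated. The layer was measured in bulk, so that fewer cells of a lineage and less RNA per cell cannot be told apart in any value given here.

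**Figure D1:**
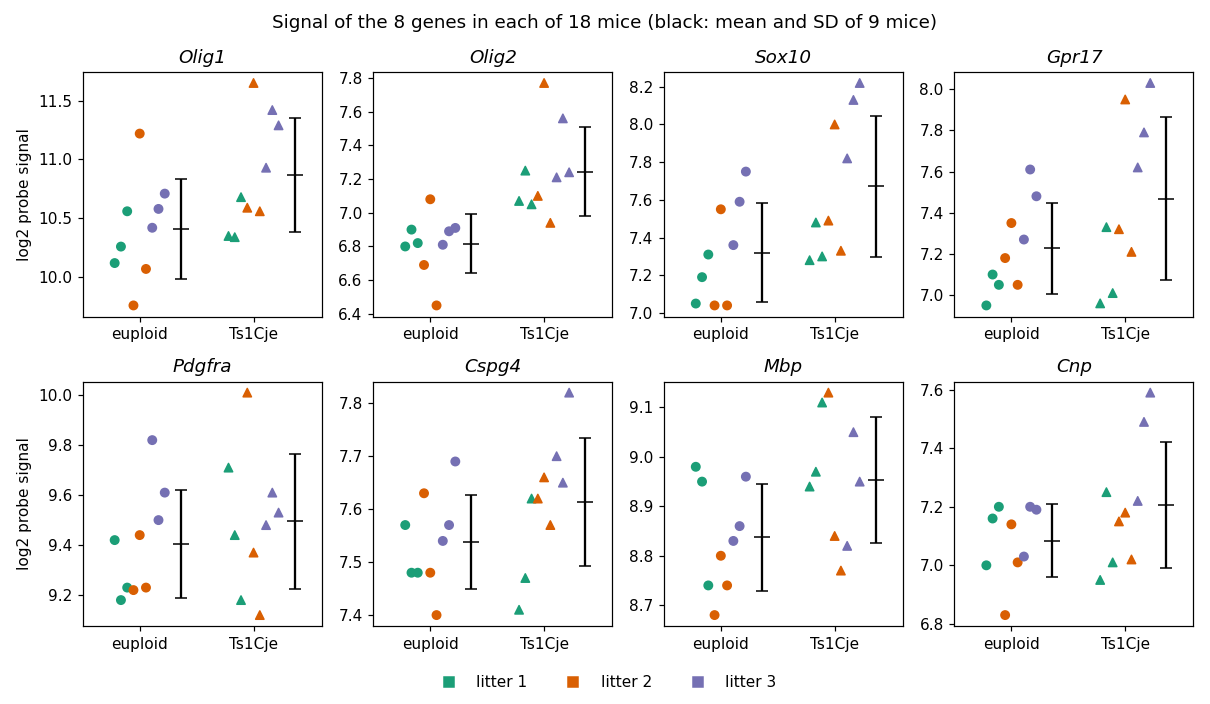
Log2 probe signal (y axis, one scale per gene) of the 8 genes in 9 euploid (circles) and 9 Ts1Cje mice (triangles), coloured by litter, with the mean and SD of each genotype in black. For Olig2, 6 of 9 Ts1Cje mice lie above every euploid mouse, while the genotypes overlap widely for Pdgfra and Cspg4.

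Olig1 and Olig2, basic helix-loop-helix factors that drive maturation and specification of oligodendrocytes, both had higher mean signals in Ts1Cje mice, Olig1 by a ratio of 1.37 and Olig2 by 1.34. Olig1 ranged from 9.76 to 11.22 with a median of 10.42 in euploid mice, and from 10.34 to 11.65 with a median of 10.68 in Ts1Cje mice. The genotypes overlapped, with 4 euploid mice below every Ts1Cje mouse and 3 Ts1Cje mice above every euploid mouse. Among the tested probes, 11.7% had at least 3 Ts1Cje mice above every euploid mouse. The highest euploid value, 11.22, belonged to euploid replicate 5 of litter 2, one of the 2 arrays with the cerebellum label, and the highest Ts1Cje value to replicate 5 of the same litter. The log2 difference was 0.46 (limma, SE 0.19, 95% interval 0.06 to 0.86), with an adjusted p of 0.997. Exact permutation over all splits of the mice gave p = 0.050 before any correction and 0.039 when mice were exchanged only within litters. Without the 2 arrays labelled cerebellum the difference was 0.52 (exact permutation p = 0.029).

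Olig2 was dimmer and separated the genotypes more than Olig1. In euploid mice it ranged from 6.45 to 7.08 with a median of 6.82, and in Ts1Cje mice from 6.94 to 7.77 with a median of 7.21. Above every euploid mouse lay 6 of the 9 Ts1Cje mice, and 8 euploid mice lay below all Ts1Cje mice, so that the overlap came from euploid replicate 5 alone. Only 0.781% of the tested probes had 6 or more Ts1Cje mice above every euploid mouse. The log2 difference was 0.43 (SE 0.10, 95% interval 0.22 to 0.63), with p = 2.06e-04 in the exact permutation test and 5.00e-04 within litters. Leaving out the arrays labelled cerebellum, it was 0.41 (exact permutation p = 4.37e-04). Its adjusted p was 0.092 over the 15000 brightest probes, of which 0.307% passed at 0.05, and 0.176 over all probes, of which 0.0922% passed. Olig2 therefore did not pass the threshold after correction. The second Olig2 probe, at the background level, differed by 0.08 (SE 0.06).

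Within litters the differences of Olig1 were 0.14, 0.59 and 0.64 in litters 1, 2 and 3, and those of Olig2 were 0.28, 0.53 and 0.47. In litter 1 the euploid values of Olig2 were 6.80, 6.90 and 6.82 and the Ts1Cje values 7.07, 7.25 and 7.05. In litter 3 they were 6.81, 6.89 and 6.91 against 7.21, 7.56 and 7.24. The genotypes did not overlap for Olig2 in either of these litters, whereas in litter 2 euploid replicate 5 (7.08) lay above 1 Ts1Cje mouse (6.94). For Olig1 the genotypes were apart only in litter 3, with 10.42, 10.58 and 10.71 against 10.93, 11.42 and 11.29. A comparison of 3 with 3 mice cannot go below p = 0.10 in an exact test, and none was run within litters. Groups without overlap are the outcome with that p, and their share over all probes was not computed. The interaction test of limma called no difference of the Olig1 effect between litters (adjusted p = 0.866).

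Against the rest of the segment, the question was whether these genes followed their copy number as other three-copy genes do. Of 26 other tested genes between Sod1 and Zbtb21, 21 passed the genotype test, with a median ratio of 1.37 and a range from 0.983 to 1.58. The lowest ratio was that of the brightest Sod1 probe, which stayed among the 26. The paper lists Sod1 as over-expressed in this layer, without naming its probe. Per mouse, Olig1 minus the mean of these 26 genes differed between genotypes by 0.01 (SD 0.47 in Ts1Cje and 0.36 in euploid mice, exact permutation p = 0.973). For Olig2 the same difference was -0.02 (SD 0.27 and 0.14, exact permutation p = 0.834). The 95% intervals of the ratios, 1.04 to 1.81 for Olig1 and 1.17 to 1.55 for Olig2, held the ratio of 1.5 that copy number gives. The spread between mice set Olig1 apart in rank: its SD within genotypes, 0.45, ranked 1 among the 28 genes, where the other 26 had a median of 0.18 and a maximum of 0.32, and Olig2 ranked 5 with 0.22.

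The nearest tested neighbours of the pair had similar log2 differences and less spread than Olig1. Scaf4 and Mis18a, on the side of the centromere, differed by 0.47 and 0.59, with adjusted p = 0.011 in limma for both. Ifngr2, a chain of the interferon gamma receptor, and Tmem50b lay on the distal side. They differed by 0.43 and 0.51, with limma adjusted p of 6.89e-04 and 1.43e-03. Each had 9 of 9 Ts1Cje mice above every euploid mouse, where 0.781% of the tested probes had at least 6. The SDs of Ifngr2 and Tmem50b within genotypes were 0.10 and 0.15, against 0.19 for Scaf4 and 0.24 for Mis18a. Ifngr2 thus passed the test with a smaller difference (0.43) than that of Olig1 (0.46), whose SD within genotypes was larger.

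**Figure D2:**
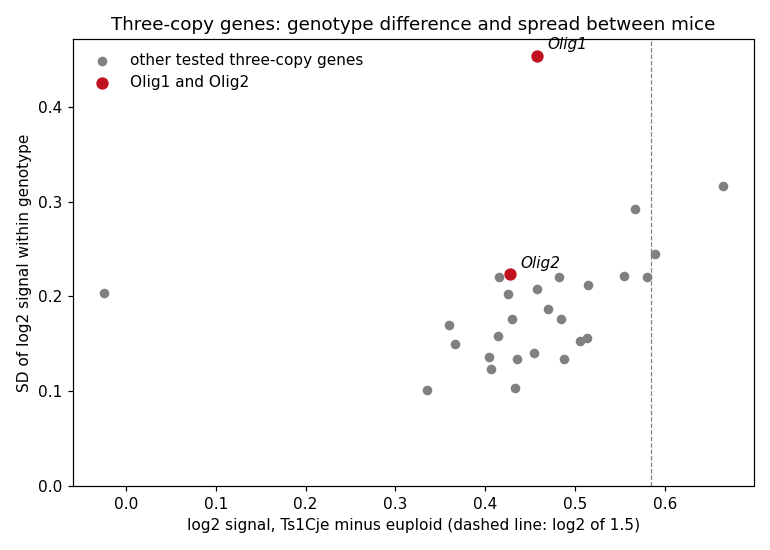
Genotype difference in log2 signal (x axis) and SD of log2 signal within genotypes (y axis) of the 28 three-copy genes, with 1 point per gene. Olig1 (0.46, SD 0.45) lies in the middle of the differences and at the top of the spread, and Olig2 (0.43, SD 0.22) among the other genes.

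Of the 6 genes with 2 copies, Sox10 had the largest difference. Sox10, an HMG-box factor that activates myelin genes, ranged from 7.04 to 7.75 with a median of 7.31 in euploid mice and from 7.28 to 8.22 with a median of 7.49 in Ts1Cje mice. Of the Ts1Cje mice, 4 were above every euploid mouse, as in 4.42% of the tested probes. The log2 difference was 0.35 (SE 0.14, ratio 1.28, 95% interval of the ratio 1.04 to 1.56), with an adjusted p of 0.997 in limma and 0.177 with litter as a block. The exact permutation p before correction was 0.036 over all splits and 5.25e-03 within litters. It was 0.060 over all splits without the 2 arrays labelled cerebellum, with a difference of 0.35. The differences in litters 1, 2 and 3 were 0.17, 0.40 and 0.49. The 3 highest mice were Ts1Cje mice, 2 of litter 3 with 8.13 and 8.22 and, after them, replicate 5 of litter 2.

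Gpr17, a receptor of progenitors that have begun to mature, followed Sox10 at a smaller scale. It ranged from 6.95 to 7.61 with a median of 7.18 in euploid mice and from 6.96 to 8.03 with a median of 7.33 in Ts1Cje mice. The 4 Ts1Cje mice above every euploid mouse were the 3 of litter 3 and replicate 5 of litter 2. Among the tested probes, 4.42% had at least 4 such mice. The log2 difference was 0.24 (SE 0.14, ratio 1.18), with an adjusted p of 0.997 in limma and 0.527 with litter as a block. Before correction the exact permutation p was 0.128 over all splits and 0.027 within litters. Without the 2 arrays labelled cerebellum the difference was 0.23 (exact permutation p = 0.186).

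Pdgfra and Cspg4, the receptor of platelet-derived growth factor A and the NG2 proteoglycan of the progenitor surface, had no called difference. Pdgfra ranged from 9.18 to 9.82 with a median of 9.42 in euploid mice and from 9.12 to 10.01 with a median of 9.48 in Ts1Cje mice. Its log2 difference was 0.09 (SE 0.11), and the 95% interval of the ratio ran from 0.909 to 1.24. It was 0.17 and 0.20 in litters 1 and 2 and -0.10 in litter 3. The differences without the 2 arrays labelled cerebellum were 0.07 for Pdgfra and 0.05 for Cspg4. Cspg4 had the smallest range of the 8 genes, from 7.40 to 7.69 with a median of 7.54 in euploid mice and from 7.41 to 7.82 with a median of 7.62 in Ts1Cje mice. Its log2 difference was 0.07 (SE 0.06), with an interval of the ratio from 0.966 to 1.15. Both genes also have sources outside the lineage, Pdgfra in fibroblasts of the meninges and Cspg4 in pericytes.

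Mbp, which compacts the myelin sheath, and Cnp, a phosphodiesterase of non-compact myelin, differed little with their brightest probes. Mbp ranged from 8.68 to 8.98 with a median of 8.83 in euploid mice and from 8.77 to 9.13 with a median of 8.95 in Ts1Cje mice (difference 0.12, SE 0.06, exact permutation p = 0.054 over all splits and 0.039 within litters). Cnp ranged from 6.83 to 7.20 with a median of 7.14 in euploid mice and from 6.95 to 7.59 with a median of 7.18 in Ts1Cje mice (difference 0.12, SE 0.08, exact permutation p = 0.169 over all splits and 0.109 within litters). The difference of Cnp was -0.05 in litter 1 and 0.29 in litter 3, where the genotypes did not overlap (3 against 3 mice, exact test p = 0.10). Without the 2 arrays labelled cerebellum the differences were 0.10 for Mbp (exact permutation p = 0.135) and 0.12 for Cnp (0.233). The interval of the ratio ran from 0.990 to 1.19 for Mbp and from 0.965 to 1.23 for Cnp.

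The second tested probe of Mbp, which the annotation assigns to another transcript than the first, behaved otherwise. It ranged from 7.20 to 8.24 in euploid mice, with a median of 7.45, and from 7.10 to 9.60 in Ts1Cje mice, with a median of 8.12. The 3 highest values, 9.60, 8.53 and 8.45, were all Ts1Cje mice of litter 3. The log2 difference was 0.49 (SE 0.26), with an exact permutation p of 0.108 over all splits and 0.054 within litters, before correction. It was 0.40 (exact permutation p = 0.237) without the 2 arrays labelled cerebellum. Within litters it was 0.04, 0.28 and 1.14. Over the 18 mice the 2 Mbp probes correlated at only r = 0.14 (rho = 0.17, permutation p = 0.593 and 0.503). The Mbp locus is known to make myelin transcripts and, from an upstream promoter, Golli transcripts that neurons also express. Which of these each probe reads was not analysed here. A dim probe (mean 5.96) that the annotation assigns to the same transcript as the second probe differed by 0.04 (SE 0.05).

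**Figure D3:**
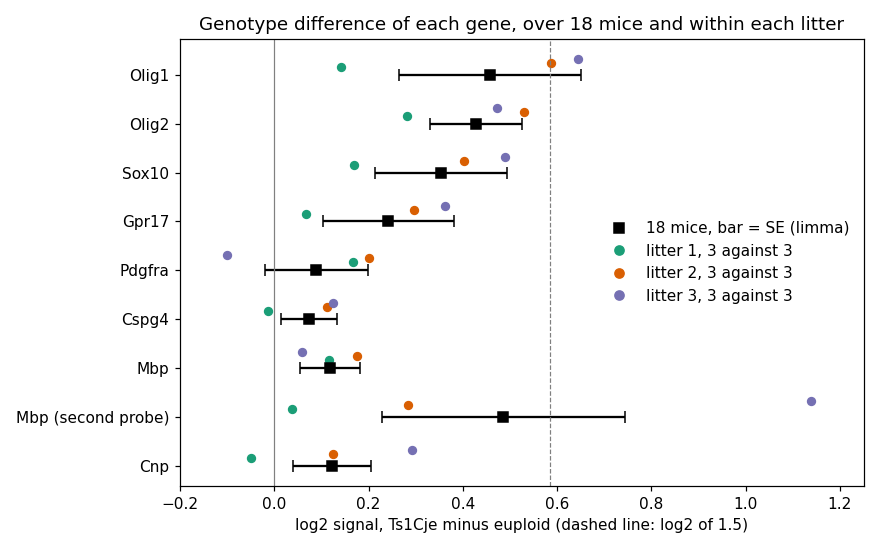
Difference in log2 signal between Ts1Cje and euploid mice (x axis) for the 8 genes and the second Mbp probe, over 18 mice with the SE of limma (black squares) and within each litter (coloured circles). All squares lie above 0, and litter 1 gives the lowest circle for Olig1, Olig2, Sox10, Gpr17, Cspg4, Cnp and the second Mbp probe.

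Counted over the genes, 0 of the 7 with a tested probe passed the genotype test after adjustment, against 0.326% of all tested probes, and 0 of 7 with litter as a block in limma, against 0.583%. Before adjustment 2 of 7 (Olig1 and Sox10) were higher in Ts1Cje mice at 0.05, against 3.15% of the tested probes, and with litter as a block 3 of 7 (Gpr17 as well), against 5.64%. All 8 genes had a difference above 0, as had 57.1% of the tested probes, and 5 of 8 (Olig1, Olig2, Sox10, Gpr17 and Mbp) had one above 0 in each litter, as had 16.2%. The median difference of the 6 genes with 2 copies was 0.12, and that of all tested probes 0.02. Since the genes vary together over the mice, these counts do not add up independent observations.

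A litter difference was called for 2 of the 7 genes with a tested probe, a share near that of all tested probes. Gpr17 and Sox10 differed between litters (limma F test with genotype as a term, adjusted p = 5.48e-03 and 7.02e-03), as did the second Mbp probe (adjusted p = 0.024), against 28.3% of the tested probes. The means of litters 1, 2 and 3 were 7.07, 7.34 and 7.63 for Gpr17 and 7.27, 7.41 and 7.81 for Sox10. The adjusted p was 0.173 for Olig1, 0.096 for Cnp, 0.155 for Cspg4, 0.262 for Pdgfra and 0.367 for the brightest Mbp probe. The genotype difference depended on litter for 0 of the 8 tested probes in the interaction test of limma after adjustment, against 0.0515% of all tested probes.

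Over single mice, 5 of the 8 genes rose and fell together and 2 did not follow them. All 28 pairs had r above 0 over the 18 mice, with a median of 0.48. Of all tested probes, 59.3% had r above 0 with Gpr17 and 91.6% with Mbp, the lowest and highest shares of the 8 genes. With the mean of each genotype in each litter removed, 23 pairs had r above 0, with a median of 0.21. After quantile normalization some pairs of Mbp fell below 0 (-0.16 with Olig1) and others did not (0.16 with Olig2). Of the 28 pairs, 12 passed after adjustment over all pairs (permutation tests of r), or 13 by rho. Olig1 and Sox10 had r = 0.89 (rho = 0.90, adjusted permutation p = 1.40e-04 for both). Sox10 and Gpr17 had r = 0.94 (rho = 0.92, with the same adjusted p, the smallest the permutations can give over 28 pairs). Olig1 and Olig2, the 2 neighbours, had r = 0.83 (rho = 0.76, adjusted permutation p = 2.10e-04 and 2.04e-03). Sox10 and Cnp reached r = 0.85 and Olig2 and Sox10 0.79. Every pair among Olig1, Olig2, Sox10, Gpr17 and Cnp passed, as did Cspg4 with Sox10 (0.68) and with Gpr17 (0.71). Correlations with other probes give the scale: over all tested probes the median r with Olig1 was 0.20 and the 95th percentile 0.60, and for Sox10 these were 0.18 and 0.65.

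These relations were checked for genotype, litter and single mice. Without the 2 mice farthest from the median of Olig1, its r was 0.85 with Sox10, 0.68 with Olig2 and 0.67 with Gpr17. After the mean of each genotype in each litter was removed, r was 0.87 for Olig1 and Sox10, 0.80 for Olig1 and Olig2, 0.84 for Olig2 and Sox10 and 0.88 for Sox10 and Gpr17. The pairs of Cspg4 lost most, falling to 0.19 with Sox10 and 0.28 with Gpr17, so that these relations lay mainly between litters and genotypes. Within litters, Olig1 and Olig2 had r = 0.89 and 0.95 in litters 2 and 3 and 0.20 in litter 1. Olig1 and Sox10 had 0.51, 0.96 and 0.97 in litters 1, 2 and 3. For Olig1 and Gpr17, r was -0.0045 in litter 1, 0.85 in litter 2 and 0.86 in litter 3. Litter 1 was also the litter in which Olig1 varied least (SD 0.20 against 0.70 and 0.40).

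Pdgfra and the brightest Mbp probe stood outside this group. The pairs of Pdgfra had r between 0.17 (Cspg4) and 0.46 (Mbp), and its r with Olig1 was 0.20 (rho = 0.33, adjusted permutation p = 0.463 and 0.249). With the means of genotype and litter removed, its r was -0.05 with Olig1, 0.02 with Sox10 and -0.14 with Gpr17. The brightest Mbp probe had r = 0.22 with Olig1, 0.27 with Sox10 and 0.08 with Gpr17. The second Mbp probe, in contrast, had r = 0.82 with Cnp, 0.81 with Gpr17 and 0.77 with Sox10 (rho = 0.77, 0.62 and 0.60). Adjusted over its 8 relations, the permutation p of r was 5.60e-04 for Cnp and for Gpr17 and 6.67e-04 for Sox10. This probe was looked at after its values were seen.

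**Figure D4:**
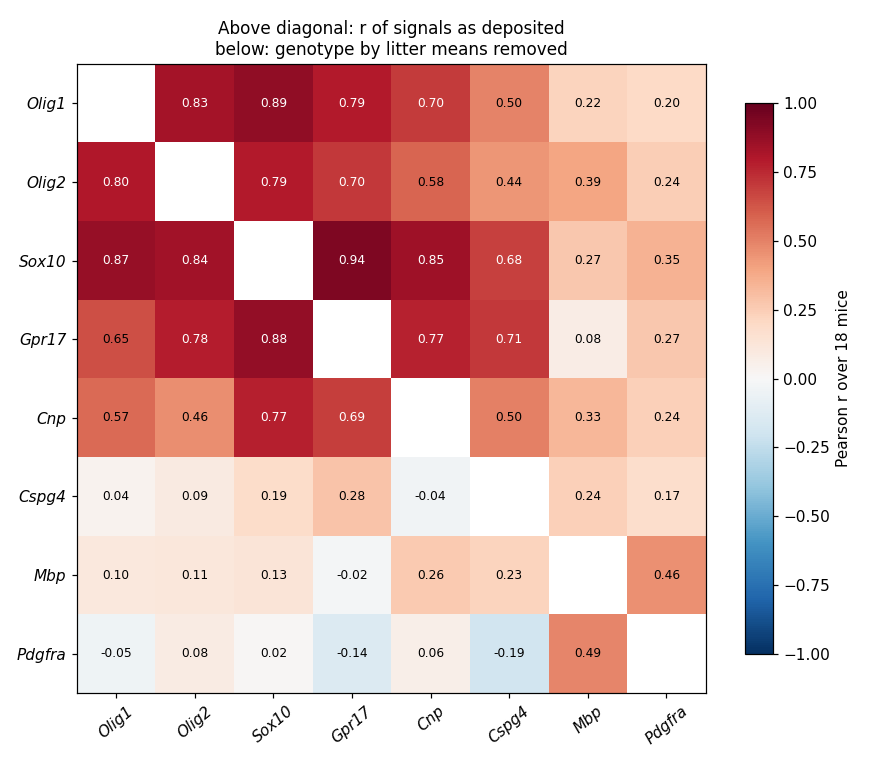
Pearson correlation of log2 signals over 18 mice between the 8 genes, as deposited above the diagonal and with the mean of each genotype in each litter removed below it. Olig1, Olig2, Sox10, Gpr17 and Cnp form a block above the diagonal with r from 0.58 to 0.94, which Mbp (at most 0.39 with them) and Pdgfra (at most 0.35) do not share.

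Markers of other cell types moved with some of the genes. Over the 18 mice, the mean log2 signal of 6 astroglial genes (among them Aqp4, the water channel of astrocyte endfeet, and Gja1, a gap junction protein of astrocytes) had r = 0.91 with Sox10, 0.87 with Gpr17 and 0.83 with Cnp (adjusted permutation p of at most 6.40e-04). With Olig1 it had r = 0.71 and with Olig2 0.57 (adjusted permutation p = 7.13e-03 and 0.050). After the means of genotype and litter were removed, these were 0.74 for Sox10, 0.63 for Gpr17, 0.92 for Cnp, 0.58 for Olig1 and 0.52 for Olig2. The mean of 8 endothelial genes had r = 0.76 with Sox10 and Cnp and 0.70 with Gpr17, but with these means removed it had 0.04, 0.35 and 0.04. The mean of 4 Purkinje cell genes ran against Olig1, with r = -0.67 (rho = -0.58, adjusted permutation p = 0.012 and 0.055), and r was -0.15, -0.77 and -0.44 within litters 1, 2 and 3. In all, 48 relations of the 8 genes with 6 lists were computed, and 12 passed by r and 9 by rho after adjustment.

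The brightest Mbp probe was related to another list. Its r with the mean of 5 granule cell precursor genes (Barhl1, Zic1, Pax6, Meis1 and Ccnd1) was 0.75 (rho = 0.75, adjusted permutation p = 3.36e-03 and 3.84e-03), and 0.54, 0.78 and 0.75 within litters. Without the 2 mice farthest from the Mbp median it was 0.65. This Mbp probe had r above 0 with 91.6% of all tested probes, with a median of 0.31 and a 95th percentile of 0.61. Whether its relation is particular to this list was not tested. No other gene of the 8 passed with this list, and r was 0.03 for Olig1 and 0.05 for Sox10. The 48 relations were computed after the values of the genes had been seen.

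**Figure D5:**
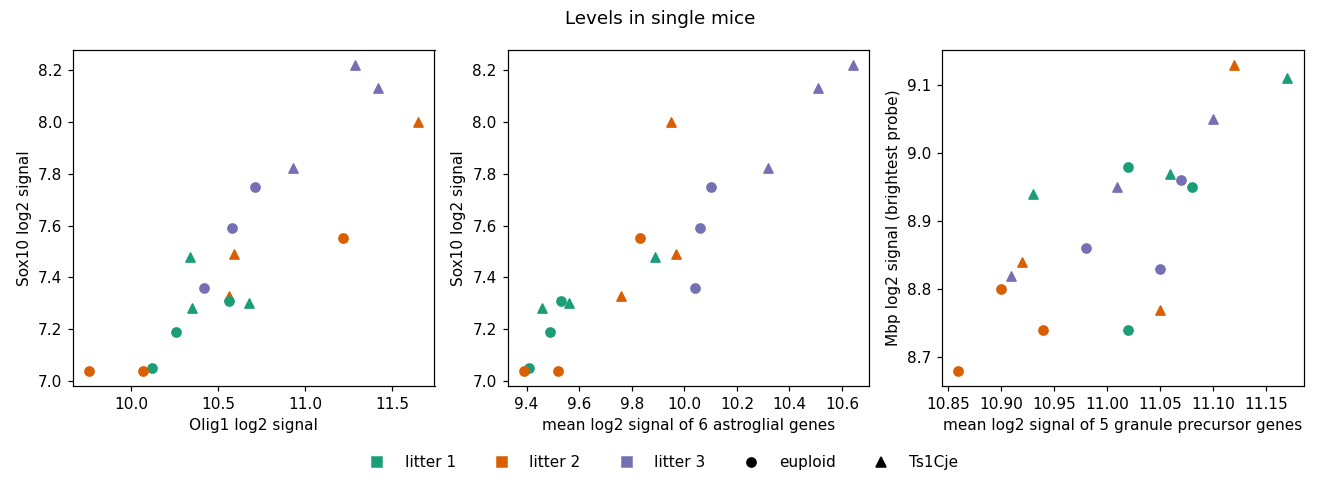
Log2 signals in single mice, coloured by litter, with circles for euploid and triangles for Ts1Cje mice. Left, Sox10 against Olig1 (r = 0.89). Middle, Sox10 against the mean of 6 astroglial genes (r = 0.91). Right, the brightest Mbp probe against the mean of 5 granule cell precursor genes (r = 0.75).

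The same lists are given beside the genotype differences. Of 6 tested astroglial genes, 5 had a higher mean in Ts1Cje mice, as had 57.1% of all tested probes. The mean log2 signal of the 6 genes differed by 0.30 (0.16, 0.31 and 0.42 in litters 1, 2 and 3). It ranged from 9.39 to 10.10 in euploid and from 9.46 to 10.64 in Ts1Cje mice. Aqp4 (difference 0.65, limma adjusted p = 0.997, with litter as a block 1.59e-03) and Apoe (0.60) differed most. Without the 2 arrays labelled cerebellum Aqp4 differed by 0.61 (exact permutation p = 0.083), and Slc1a3, the glial glutamate transporter, differed by -0.01 over all mice. All 8 tested endothelial genes were higher on average, with a median difference of 0.35, among them Tek (0.56), Vwf (0.52) and Cdh5 (0.38). Before adjustment 2 of the 8 were higher at p under 0.05 in limma, against 3.15% of all tested probes. With litter as a block 7 of 8 were, against 5.64%. After adjustment Vwf passed in limma with the block (0.020, against 0.876 without it), as did 0.583% of the tested probes. Of the 8 endothelial genes, 7 also differed between litters after adjustment, against 28.3% of the tested probes. Their mean ranged from 8.15 to 8.94 in euploid and from 8.30 to 9.44 in Ts1Cje mice. The 2 endothelial genes not tested, Kdr (7.03) and Slco1a4 (6.58), differed by 0.03 (SE 0.06) and 0.22 (SE 0.11). For granule cell precursor, Purkinje cell and GABAergic interneuron genes, the means differed by 0.04, 0.0022 and -0.0042. The part of these cell types in the differences of Sox10, Gpr17 and the Olig genes was not tested.

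Other lists bear on the sources that Pdgfra, Cspg4 and Sox10 have outside the lineage. Of 10 meningeal genes only Dcn and Igfbp2 were tested, and Dcn, a proteoglycan of connective tissue, differed by 1.64 (SE 0.73, exact permutation p = 0.067 over all splits and 0.040 within litters), or by 1.24 (exact permutation p = 0.186) without the 2 arrays labelled cerebellum. Igfbp2 differed by -0.12 (SE 0.24), with -0.57, -0.11 and 0.33 in litters 1, 2 and 3. Of the 8 meningeal genes not tested, 2 were above the 95th percentile of the receptor probes. They were Col1a1 (difference 0.64, SE 0.29) and Slc22a6 (0.64, SE 0.31). The 6 below it differed by 0.53 (Lum, SE 0.19), 0.43 (Col3a1, SE 0.16), 0.15 (Col1a2), 0.14 (Aldh1a2) and -0.06 (Ogn and Foxc1). Of 8 pericyte genes, Rgs5 (difference 0.31, SE 0.18) and Notch3 (0.04, SE 0.08) were tested. Of the 6 others, the 4 above this percentile differed by 0.96 (Acta2, SE 0.40), 0.13 (Pdgfrb), -0.01 (Kcnj8) and -0.01 (Abcc9). The 2 below it differed by 0.12 (Anpep) and 0.11 (Des). Of 6 Schwann cell and neural crest genes with a probe, only Pmp22 was tested, which many other cells express (difference -0.02, SE 0.11). Of the 5 others, 4 were below the 95th percentile of the receptor probes, the neural crest factor Foxd3 (5.66), Egr2 (5.70), Erbb3 (5.60) and Gldn (5.95). Cdh19 (6.15, difference -0.03, SE 0.05) lay just above it. Of the microglial genes, Cx3cr1 was tested and differed by 0.17 (SE 0.18).

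Further genes of the lineage, from lists written with earlier results of these data known, gave few differences. Of 19 lineage transcription factors 14 were tested. Before adjustment 3 were higher in Ts1Cje mice at p under 0.05 in limma, against 3.15% of the tested probes, and 0 were lower. These were Olig1, Sox10 and Sox6, a factor that holds progenitors immature. Sox6 had a mean of 8.45 in Ts1Cje and 8.06 in euploid mice, a difference of 0.39 (SE 0.12, limma adjusted p = 0.435, exact permutation p = 7.61e-03 before correction). Above every euploid mouse lay 5 Ts1Cje mice, as in 1.66% of the tested probes, and without the 2 arrays labelled cerebellum the difference was 0.37 (exact permutation p = 0.023). Its differences were 0.27, 0.51 and 0.40 within litters. Its partner Sox5 differed by 0.14 (SE 0.11). Sox9, which acts in glia before the lineage is set and had the highest signal of the list (11.17), differed by -0.07 (SE 0.16). The median of the 12 tested factors other than Olig1 and Sox10 was -0.02, against 0.02 for all tested probes.

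Of 15 progenitor genes 6 were tested, and 0 had p under 0.05 in limma in either direction before adjustment, or 1 (Gpr17) with litter as a block. Bcas1, a gene of early myelinating cells, differed by 0.19 (SE 0.11) and Matn4, an extracellular matrix protein, by -0.11 (SE 0.13). Of 18 myelin genes 6 were tested, with a median of 0.12, and 0 had p under 0.05 in limma, or 1 (Cldn11) with litter as a block. Cldn11, a tight junction protein of myelin that is also known from the arachnoid of the meninges, differed most, by 0.88 (SE 0.43, exact permutation p = 0.088 over all splits and 0.021 within litters), with 0.09, 0.87 and 1.67 in litters 1, 2 and 3. It differed by 0.69 (exact permutation p = 0.210) without the 2 arrays labelled cerebellum. Of the 10 myelin genes with a probe that were not tested, 7 (among them Mog, Mobp and Opalin, with 5.89, 5.83 and 5.73) were below the 95th percentile of the receptor probes and 3 above it (Mag with 6.42, Fa2h with 6.62 and Gal3st1 with 6.71). Of 10 growth factor genes 5 were tested and 0 had p under 0.05 in limma. Pdgfa, the ligand of Pdgfra, differed by 0.09 (SE 0.07) and Pdgfb by 0.14 (SE 0.12). After adjustment, 0 of the genes in these 4 lists passed in limma, against 0.326% of all tested probes. With litter as a block, 5.64% of all tested probes were higher at p under 0.05 before adjustment.

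The genes whose signal was most like that of Olig1, Olig2 and Pdgfra over the 18 mice were taken from all tested probes, after the mean of each genotype in each litter was removed. For Olig1 these were Sdk1 (r = 0.97), a cell adhesion molecule, Dkk3 (0.95), Wwc2 (0.95), Arpp21 (0.94) and Sned1 (0.94). Over all tested probes the median r with Olig1 was 0.25 and the 99th percentile 0.85, so that many probes shared its profile. Sox10 (0.87) stood at percentile 99.5, Gpr17 (0.65) at 90.3, Cnp (0.57) at 84.0, Mbp (0.10) at 35.7 and Pdgfra (-0.05) at 22.9. The 5 genes most like Olig1 had genotype differences from -0.08 to 0.18, all smaller than that of Olig1.

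For Olig2 the most similar genes were Slc6a11 (0.91), a GABA transporter of astrocytes, Renbp (0.88), Tarbp2 (0.88), Cyth4 (0.87) and Ppp1r3c (0.86), with Sox10 in rank 10 (0.84). Sox10 stood at percentile 99.9 of all tested probes, Olig1 at 99.6 and Gpr17 at 99.5 in likeness to Olig2. For Pdgfra they were Rnf103 (0.88), Tmem185b (0.88), 9130019O22Rik (0.87), Msmo1 (0.86), an enzyme of sterol synthesis, and Zfp644 (0.85). In likeness to Pdgfra, Sox10 stood at percentile 24.9, Gpr17 at 12.6 and Mbp at 86.6. The genes most like Pdgfra had genotype differences from -0.10 to -0.04.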

How the data were processed

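RNA of the dissected external granule cell layer of 18 mice at P0 was amplified, labelled and hybridized by the authors to Illumina Mouse-6 v1.1 arrays. They took the mean over beads and scaled the arrays to a common mean; the deposited unit is log2 signal. Whether background was subtracted is not given in the sources used here. Genotype came from the labels and litter from the slide in the titles and the paper's account of 3 litters. Symbols were updated through Entrez identifiers, which matched for 29921 of 29976 probes with 1 symbol.

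Genotype, litter and interaction were tested with limma 3.58.1 in R 4.3.3 (two-sided, no litter term for genotype) on the brightest 25% of probes (11658), with Benjamini-Hochberg adjustment at 0.05. Exact permutation tests used all 48620 splits of the mice, correlations 100000 permutations (Python 3.11.15, scipy 1.17.1). The limma fit was tested on simulated data. P-values set a result against the spread between mice, and the number of arrays limits precision. The permutations of correlations exchanged mice across litters and genotypes, so that shifts between litters or genotypes also enter their p.

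The members, lists and tests were chosen with earlier results of these data known. Named are the 8 genes, in each list up to 4 tested genes of smallest p and up to 2 of highest signal, 2 neighbours on each side of the Olig pair, and the 5 genes most like Olig1, Olig2 and Pdgfra. Dim genes given beside the background level were chosen after their values were seen. Alternatives were other normalizations, filters and tests, litter as a block, subtracted background, and litters, mice or the 2 arrays labelled cerebellum left out; the second Mbp probe, the relations with cell type lists and the exact test over the 8000 splits within litters were added after seeing the data. Promoter sequences and positions are from RefSeq (GRCm38.p6). For Olig1 and Sox10 no promoter is printed.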

Additional observations from a re-analysis of the deposited data

Results flagged for a closer look

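In 26 groups of 9 mice (13 probes in 2 genotypes), 1 mouse stood far from the rest of its group. On the second tested Mbp probe, euploid replicate 8 of litter 3 had a log2 signal of 8.24, the next euploid mouse 7.65 and the lowest 7.20, so that the gap was 0.571 of the range. Chance flags about 1 in 20 groups.

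On a dim Mbp probe (mean 6.18), every Ts1Cje mouse of litter 1 lay below every euploid littermate (difference in log2 signal -0.12), and every Ts1Cje mouse of litter 3 lay above (0.15), with 0.07 in litter 2. Such a separation of 3 from 3 mice has p = 0.10 in an exact test within 1 litter. The difference between litters was not tested for this probe.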

How the results depend on the processing

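Of 428 recomputed values of all results, 399 kept their direction and side of the threshold or moved by less than the spread between mice, 2 fell below the threshold, 6 passed it, 21 moved and 0 changed sign after a call. The count of 38 probes past the genotype test was 68 with litter as a block, 25 without the 2 arrays labelled cerebellum, and 19, 10 and 17 without litters 1, 2 and 3. The difference of Olig2, 0.43, was 0.73 (ratio 1.66) after the median of the receptor probes was subtracted as background. Of the 8 genes, every difference was above 0 under each alternative run, apart from the values within single litters. Other filters, litter as a block and the exact test within litters leave the difference itself unchanged, so that its sign could not change there. The 8 values of the exact test within litters were counted among the 399 without a comparison.

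Leaving out 1 mouse gave differences from 0.36 (without Ts1Cje replicate 5) to 0.56 (without euploid replicate 5) for Olig1, with unadjusted limma p from 5.69e-03 to 0.062. They were 0.36 to 0.47 for Olig2 and 0.29 to 0.41 for Sox10, and 0.17 to 0.31 for Gpr17, 0.02 to 0.14 for Pdgfra, 0.05 to 0.10 for Cspg4, 0.10 to 0.14 for Mbp and 0.07 to 0.15 for Cnp. The relations of Olig2 with Cnp (r = 0.48, adjusted permutation p = 0.116) and of Sox10 with Cspg4 (r = 0.46, 0.122) lost their call after quantile normalization. At p under 0.05 in limma before adjustment, 367 tested probes were higher and 100 lower in Ts1Cje mice. These counts were 295 and 505 after quantile normalization and 227 and 230 without litter 2. The cause was not tested. Pairing by replicate number was not possible because the labels number no replicates; litter as a block took its place. The files hold no detection p, so that the receptor probes were the only gauge of what the dim probes measure.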
